A study of Homo sapiens with 6 samples.

Results

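The genes described here control the entry of cells into S phase through the retinoblastoma protein. They are 10 genes of 18249 in the expression table, chosen by name and with their measured values already known: the INK4 inhibitors CDKN2A, CDKN2B, CDKN2C and CDKN2D, the KIP inhibitor CDKN1B, the kinases CDK4 and CDK6, the retinoblastoma gene RB1, and the cyclins CCND2 and CCND3. The choice rests in particular on CDKN2A, which was near 0 in 2 libraries and high in the third. Levels in the 3 RNA-seq libraries are therefore given as a description with no test. In this pathway a D-type cyclin binds CDK4 or CDK6, the active kinase phosphorylates the RB1 protein, and E2F transcription factors are then released to switch on genes of DNA replication. INK4 proteins bind CDK4 and CDK6 and keep them from the cyclin, whereas the CDKN1B protein, p27, binds assembled cyclin and kinase complexes. Loss of CDKN2A and gain of D cyclins are common in squamous carcinomas of the esophagus.

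All samples came from TE-10, an established human esophageal carcinoma cell line whose labels call it an epithelial line, and RNA was polyadenylated. RNA-seq was made from 1 control library of cells with normal METTL3 and from 2 libraries of METTL3 knockdown cells, which stably carried a short hairpin RNA. METTL3 is the catalytic subunit of the enzyme that methylates adenosines within mRNA, giving N6-methyladenosine (m6A). The titles number these hairpins 1 and 2, each has 1 library, and the labels do not say whether the control carried a hairpin of its own. Peaks of m6A came from cells with normal METTL3, with 1 input library and 2 immunoprecipitations labelled with different antibody catalogue numbers. Whether libraries came from separate cultures is not given in the sources used here, and no difference between 2 libraries has a replicate check.

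The hairpin 2 library stood apart from the other two. METTL3 itself was at 20.81 in the control, 8.35 in hairpin 1 and 4.99 in hairpin 2, in the unit of the deposited table, which its header does not state. The squamous markers that define the labelled cell type (KRT5, KRT14, KRT17, KRT6A, TP63, SOX2, S100A2, SFN, DSG3 and PERP) were at 1 or more in every library for 10 of 10 genes, and their values summed to 5167 in the control, 4898 in hairpin 1 and 3266 in hairpin 2. Of 8 genes typical of embryonic kidney cell lines, 0 were at 1 or more in the control and in hairpin 1 and 5 in hairpin 2, and the sums were 0.11, 0.42 and 86.85. In the control LIN28B, LHX1, NEFL and NEFM of that list were listed at 0. In hairpin 2 IRS4 was at 23.56, HOXB9 at 53.12, NEFL at 4.4, LIN28B at 2.1 and NEFM at 1.91, while PAX2 was at 0.78, WT1 at 0.69 and LHX1 at 0.29. Of all genes listed, 1.36% were under 0.5 in the control and hairpin 1 and at 1 or more in hairpin 2. The kidney line list was chosen with earlier results of these data known, so its counts are a description and no independent support. Of 7 fibroblast and mesenchymal genes, VIM and COL1A1 were at 1 or more in each library, and the sums of 90.44, 91.75 and 314.92 were mostly VIM. Leukocyte markers summed to 19.32, 8.24 and 10.95, nearly all CD68, which epithelial lysosomes also hold, and endothelial markers to 1.02, 0.37 and 0.33. Genes listed for another cell type thus stand beside every hairpin 2 value below. Whether that library holds cells other than TE-10, and what part they would have in its values, was not tested. Differences of hairpin 1 from the control are given by themselves and do not use that library. The set of tested genes behind the shares below does use it, since a gene at 1 or more in any library was kept.

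**Figure D1:**
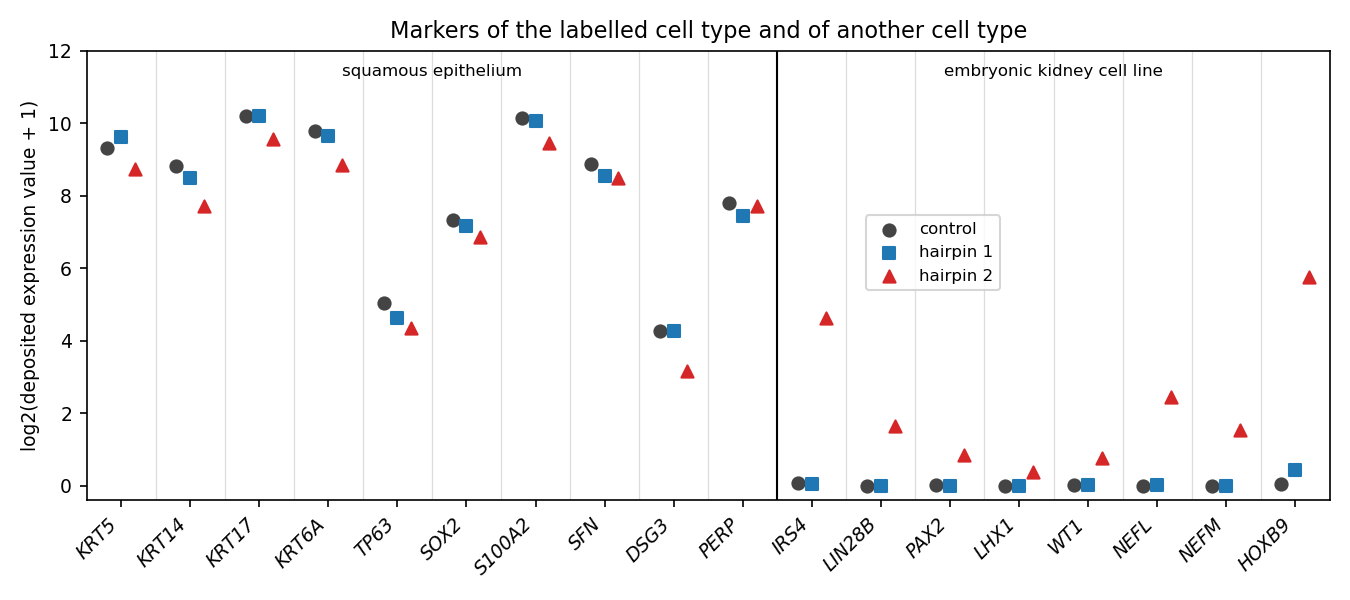
Level of each marker gene as log2(deposited value + 1) (vertical axis) in the control (circles), hairpin 1 (squares) and hairpin 2 (triangles), 1 library each, for 10 squamous genes on the left and 8 genes of embryonic kidney cell lines on the right. Kidney line genes lie near 0 in the control and hairpin 1, and IRS4 and HOXB9 are at 23.56 and 53.12 in hairpin 2.

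CDKN2A was present in the hairpin 2 library and all but absent from the other two. It encodes p16INK4a, an inhibitor of CDK4 and CDK6, and from a separate first exon p14ARF, which holds back the ubiquitin ligase MDM2. Its value was 0.04 in the control, 0 in hairpin 1 and 144.68 in hairpin 2. Among the 5417 genes under 0.5 in both the control and hairpin 1, it had the highest hairpin 2 value. The gene was chosen on this value, so the rank is only a description. The table gives 1 value per gene symbol, so transcripts for p16INK4a and p14ARF cannot be told apart, and in bulk RNA many cells with little CDKN2A cannot be told apart from few cells with much. CDKN2B, which lies beside it and encodes the INK4 inhibitor p15, was listed at 0 in the control and in hairpin 1 and was at 1.1 in hairpin 2. Parts of the CDKN2A and CDKN2B coding sequences are closely alike, so the low CDKN2B value is uncertain next to the large CDKN2A value in that library.

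These INK4 genes are read from separate start sites, and the bases before each are shown because the deposited value of CDKN2A sums over its starts. Each sequence is the 250 bases before the start, 5′ to 3′ on the gene's strand (minus), from RefSeq on GRCh38.p14. Capitals mark the GC box, GGGCGG or CCGCCC on either strand, a site that Sp family factors bind.
CDKN2A, p14ARF start, chr9:21995325-21995574: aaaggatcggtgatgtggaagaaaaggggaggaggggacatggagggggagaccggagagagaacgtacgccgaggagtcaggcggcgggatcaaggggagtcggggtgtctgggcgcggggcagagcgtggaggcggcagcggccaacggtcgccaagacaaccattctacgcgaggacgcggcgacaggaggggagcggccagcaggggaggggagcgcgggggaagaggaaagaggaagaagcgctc
CDKN2A, p16INK4a start, chr9:21974858-21975107: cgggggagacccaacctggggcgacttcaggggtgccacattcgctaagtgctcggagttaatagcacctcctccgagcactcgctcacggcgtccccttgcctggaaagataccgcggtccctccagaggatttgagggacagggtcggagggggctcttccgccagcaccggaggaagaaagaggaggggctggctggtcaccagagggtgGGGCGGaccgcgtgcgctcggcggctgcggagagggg
CDKN2B, chr9:22009306-22009555: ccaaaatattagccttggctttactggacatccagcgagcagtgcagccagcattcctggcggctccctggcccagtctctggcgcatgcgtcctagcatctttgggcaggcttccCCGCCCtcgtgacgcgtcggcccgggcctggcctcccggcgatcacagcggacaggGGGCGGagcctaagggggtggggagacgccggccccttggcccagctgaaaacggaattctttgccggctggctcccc
The p14ARF window holds 0 GC boxes, the p16INK4a window 1 and the CDKN2B window 2, and 42.6% of 35114 promoter windows of the same length hold at least 1. They hold 24, 20 and 18 CG dinucleotides, where the median window has 11. None of the 3 holds a TATAAA sequence, in either direction, which 10.7% of windows hold. These letters describe the windows and say nothing about which factor is bound.

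Neighbours of CDKN2A on chromosome 9 were also near 0 in the control and in hairpin 1. The table lists 10 of the 25 protein-coding genes that RefSeq places from MLLT3 to ELAVL2, and in chromosome order they are MLLT3, FOCAD, HACD4, IFNA21, KLHL9, MTAP, CDKN2A, CDKN2B, DMRTA1 and ELAVL2. MTAP, the next listed gene on one side of CDKN2A, encodes a methionine salvage enzyme that most tissues express, and it was at 0.07 in the control, 0.03 in hairpin 1 and 3.31 in hairpin 2. KLHL9, a substrate adaptor of a CUL3 ubiquitin ligase, was at 0.06, 0.01 and 2.04 in the same order. These 2 genes and both INK4 genes of the locus were thus each under 0.5 in the control and hairpin 1 and at 1 or more in hairpin 2.

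Past these genes the pattern differed by side. FOCAD was measurable in every library, at 4.13 in the control, 3.53 in hairpin 1 and 5.37 in hairpin 2, and MLLT3, a subunit of a transcription elongation complex, was at 1.74, 1.67 and 4.11. HACD4 was at 0.09, 0.1 and 0.11 and IFNA21, an interferon gene, was listed at 0 in each. On the other side of the INK4 genes DMRTA1 was listed at 0 in the control and hairpin 1 and was at 0.06 in hairpin 2. ELAVL2, a neuronal RNA-binding protein gene, was listed at 0 in the control and hairpin 1 and was at 1.23 in hairpin 2. Across all 18249 genes listed, 249 were under 0.5 in the control and hairpin 1 and at 1 or more in hairpin 2, or 1.36%, against 10 with the same pattern for hairpin 1 and 5 for the control.

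**Figure D2:**
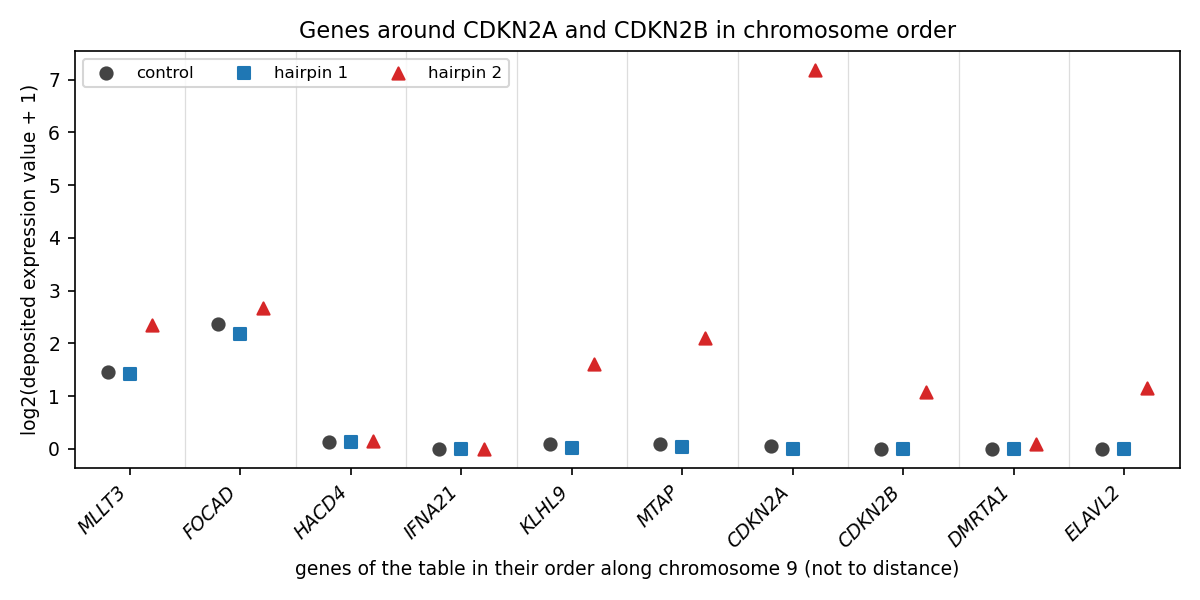
Level as log2(deposited value + 1) (vertical axis) of the 10 listed genes from MLLT3 to ELAVL2 in their chromosome order (horizontal axis, not to distance), in the control (circles), hairpin 1 (squares) and hairpin 2 (triangles), 1 library each. From HACD4 to ELAVL2 the control and hairpin 1 lie near 0, while KLHL9, MTAP, CDKN2A, CDKN2B and ELAVL2 are higher in hairpin 2.

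The m6A peak list, made from separate libraries of cells with normal METTL3, held no peak annotated to KLHL9, MTAP, CDKN2A or CDKN2B. The nearest peak on the FOCAD side lies on chromosome 9 at 20658294 to 20658507 and is annotated to KIAA1797, an older symbol of FOCAD, and the next starts at 25677349 and is annotated to TUSC1. The 5.02 Mb between them is the second widest of the gaps between neighbouring peaks among 627 on chromosome 9. The widest, of 19.77 Mb, runs from 46687844 to 66454685. Coordinates are as the deposited list gives them. A peak can be called only on expressed RNA, and the interval includes the interferon gene cluster.

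Of the genes that shared the pattern of CDKN2A, the 5 with the highest hairpin 2 values were HOXB9 (0.03 in the control, 0.35 in hairpin 1 and 53.12 in hairpin 2), IRS4 (0.05, 0.04 and 23.56), GAGE13 (0, 0 and 19.75), NRN1 (0.12, 0.18 and 15.64) and GSTM2 (0.04, 0.07 and 14.46). Likeness here is only the rule of under 0.5 in 2 libraries, ranked by the third, over 3 libraries. GAGE13 belongs to a family of near-identical cancer-testis genes, and GSTM2 to a family with close copies, so their values are uncertain.

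CCND2 was the third gene of the group with this pattern. It encodes cyclin D2, a partner of CDK4 and CDK6, and was at 0.01 in the control, 0.02 in hairpin 1 and 3.75 in hairpin 2. By hairpin 2 value it ranked 45 among the 5417 genes under 0.5 in the other two libraries, and CDKN2B ranked 216. Its neighbours on chromosome 12, unlike those of CDKN2A, were measurable in every library. PARP11 was at 1.7, 1.84 and 1.81 and TIGAR, a phosphatase of sugar metabolism, at 2.08, 2.8 and 2.99. They were chosen after the values of CCND2 were seen.

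**Figure D3:**
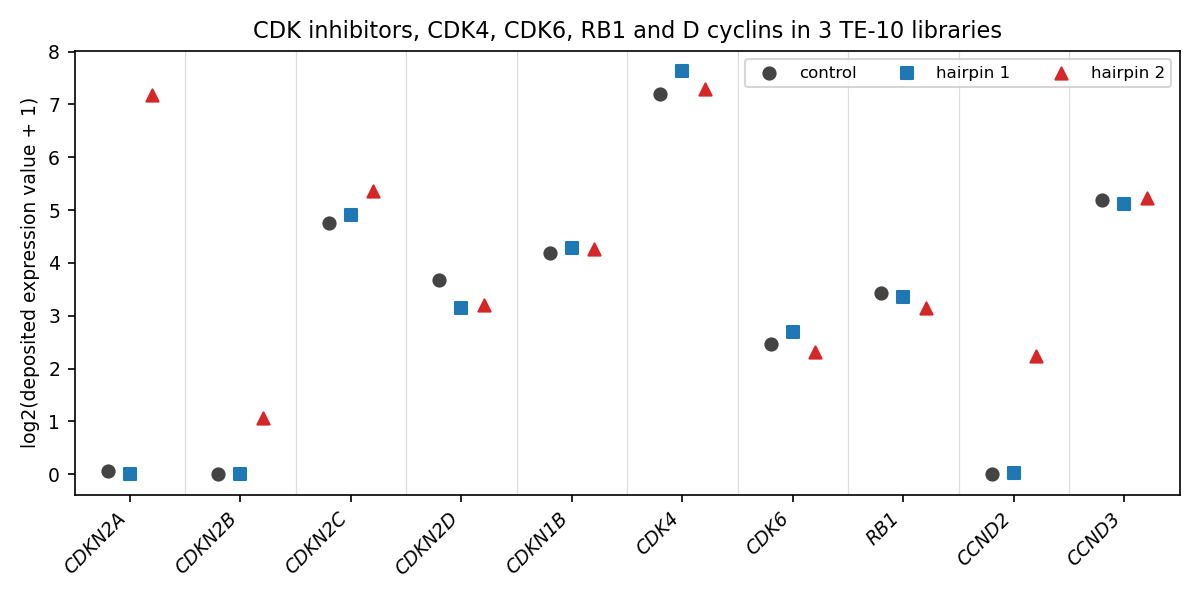
Level of each of the 10 genes as log2(deposited value + 1) (vertical axis) in the control (circles), hairpin 1 (squares) and hairpin 2 (triangles), 1 library each. CDKN2A, CDKN2B and CCND2 lie at or near 0 in the control and hairpin 1 and are at 144.68, 1.1 and 3.75 in hairpin 2, while the other 7 genes are at 3.99 or more in every library.

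The remaining INK4 genes were measurable in every library, and in both hairpin libraries CDKN2C lay above the control and CDKN2D below it. CDKN2C encodes p18, and was at 26.16 in the control, 28.87 in hairpin 1 and 40.07 in hairpin 2. On the log2(value + 1) scale it was 0.14 above the control in hairpin 1 and 0.60 above it in hairpin 2. Of the 12375 genes tested (those at 1 or more in at least 1 library), 44.1% differed by less in hairpin 1 and 86.9% in hairpin 2. CDKN2D encodes p19, and was at 11.73, 7.82 and 8.27. Its level was 66.7% of the control in hairpin 1 and 70.5% in hairpin 2, and the hairpin libraries differed from each other by 0.07. The log2 difference from the control was -0.53 in hairpin 1, where 94.3% of tested genes differed by less, and -0.46 in hairpin 2, where 78.9% did.

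CDKN1B, whose protein p27 is governed largely by degradation, was at 17.12 in the control, 18.49 in hairpin 1 and 18.17 in hairpin 2. The log2 differences of 0.11 and 0.08 were exceeded by most tested genes, since 34.8% differed by less in hairpin 1 and 19.8% in hairpin 2.

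The kinases were highest in hairpin 1. CDK4 was at 146.17 in the control, 197.53 in hairpin 1 and 156 in hairpin 2, or 135% of the control in hairpin 1 and 107% in hairpin 2. Its log2 difference of 0.43 in hairpin 1 was larger than that of 89.9% of tested genes, and its difference of 0.09 in hairpin 2 larger than that of 22.5%. CDK6 was at 4.51, 5.48 and 3.99, with log2 differences of 0.23 in hairpin 1 and -0.14 in hairpin 2, on opposite sides of the control. Their substrate RB1 was at 9.83, 9.24 and 7.83, so both hairpin libraries were below the control, with log2 differences of -0.08 in hairpin 1 and -0.29 in hairpin 2. Of tested genes, 27.6% differed by less in hairpin 1 and 61.2% in hairpin 2. CCND3, encoding cyclin D3, was at 35.29, 33.78 and 36.54, and its differences of -0.06 and 0.05 were among the smaller ones, with 20.9% and 12.4% of tested genes differing by less.

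In hairpin 1, 0 of the 10 genes differed 2-fold or more from the control on the log2(value + 1) scale, beside 0.646% of all tested genes. In hairpin 2, 3 of 10 were 2-fold or more higher (CDKN2A, CDKN2B and CCND2) and 0 lower, beside 3.64% of tested genes higher and 0.978% lower. Between the hairpin libraries CDKN2A, CDKN2B and CCND2 were 2-fold or more higher in hairpin 2 and 0 of the 10 lower, beside 4.02% and 1.2% of tested genes. The genes were chosen on these values, so the counts are no support for a difference. All 10 passed the level filter, but these 3 passed it through hairpin 2 alone. They were at 0.04 or less in the control and hairpin 1, so the hairpin 1 count bears only on the other 7 genes. The median difference over the 10 genes, with these 3 included, was 0.01 in hairpin 1 and 0.09 in hairpin 2. Over all tested genes it was -0.01 and 0.00. Across all tested genes the log2 difference from the control had an SD of 0.279 in hairpin 1 and 0.491 in hairpin 2. The comparisons share libraries and are not independent.

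**Figure D4:**
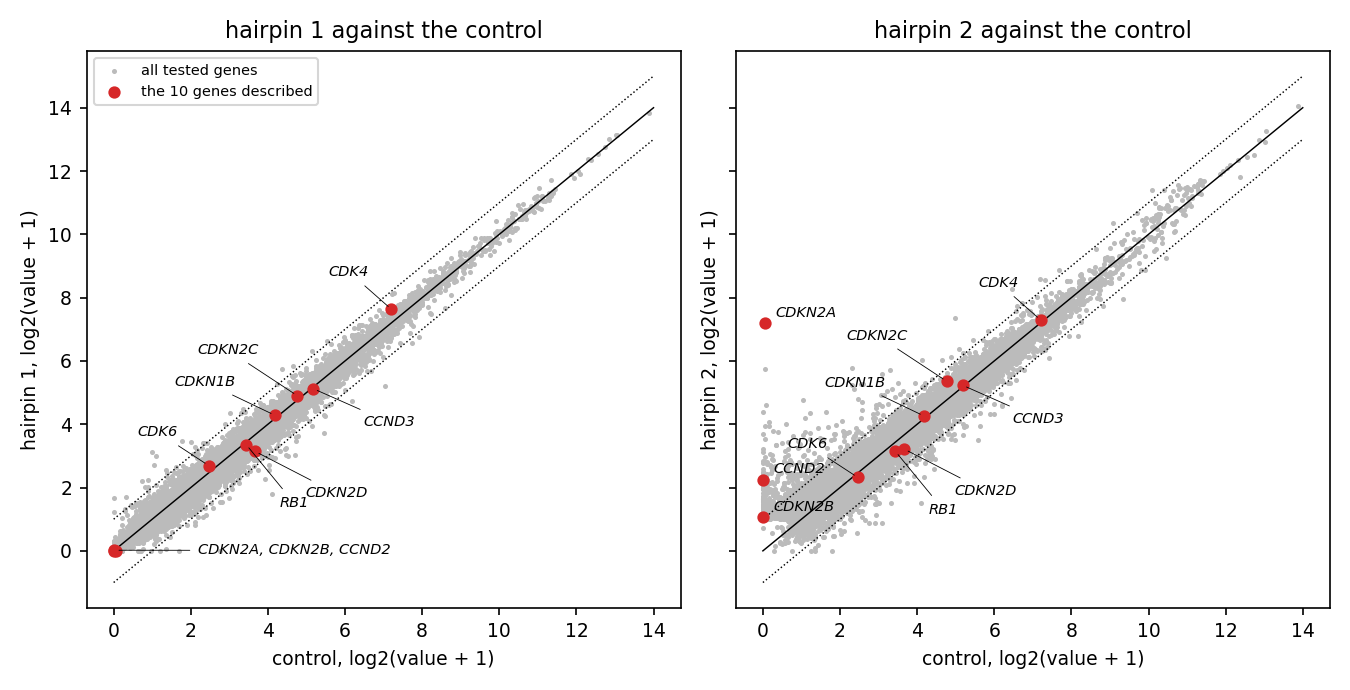
Level in hairpin 1 (left) and hairpin 2 (right) against the control, as log2(deposited value + 1), for all 12375 tested genes (grey) and the 10 genes described (red), with the line of equality and dotted lines at 2-fold. The 10 genes lie within the dotted lines on the left, and CDKN2A, CDKN2B and CCND2 lie above them on the right.

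Other genes of the pathway were grouped in lists by role. Of all tested genes, 0.646% were 2-fold or more from the control in hairpin 1 and 4.62% in hairpin 2. Beside these shares, a count of 0 or 1 in such a short list does not show that the list was unchanged. Of 10 other G1 cyclins, kinases and CIP/KIP inhibitors, 0 were 2-fold from the control in hairpin 1, and 1 was higher and 0 lower in hairpin 2. That gene, CDC25A, a phosphatase that activates CDK2, was at 4.57 in the control, 7.01 in hairpin 1 and 12.71 in hairpin 2. CCNE1, the cyclin that works with CDK2 after the D cyclins, was at 13.74, 22.37 and 8.99, above the control in hairpin 1 and below it in hairpin 2. CCND1, the third D cyclin, was at 245.47, 230.8 and 168.74. CDKN1A, encoding the inhibitor p21, was at 67.77, 54.7 and 54.17. The median of the list was -0.02 in hairpin 1 and -0.15 in hairpin 2.

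Downstream of the kinases, a 2-fold difference was again judged on the log2(value + 1) scale. By that rule 0 of 12 pocket protein, E2F and DP genes and 0 of 20 E2F target genes differed in either hairpin library. The share of all tested genes was 0.646% in hairpin 1 and 4.62% in hairpin 2. E2F5 was at 2.84, 4.51 and 6.26, or 220% of the control in hairpin 2, but only 0.92 above it on that scale. E2F5 falls outside the naming rule and was chosen after its values were seen. E2F4, a repressor E2F, was at 101.48, 125.09 and 87.7, and TFDP1, the DP partner of E2F proteins, at 93.63, 119.01 and 81.17, both highest in hairpin 1. Among E2F targets MYBL2, a mitotic gene activator, was at 354.57, 485.53 and 335.35, and the thymidine kinase TK1 at 292.08, 328.02 and 249.09. Of the 20 targets, 16 were above the control in hairpin 1 and 13 in hairpin 2, beside 5849 and 6189 of all 12375 tested genes. Their medians were 0.12 and 0.18. In hairpin 2 the E2F target values lay on both sides of the control, and 0 were 2-fold lower, beside 0.978% of all tested genes. Whether they relate to the CDKN2A level of that library was not tested.

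Of 4 genes listed for the arm of p14ARF, 0 were 2-fold from the control in either library. The share of all tested genes was 0.646% in hairpin 1 and 4.62% in hairpin 2, so a count of 0 in 4 says little. MDM2, a ubiquitin ligase that p14ARF binds, was at 6.23 in the control, 6.46 in hairpin 1 and 8.68 in hairpin 2. NPM1, a nucleolar protein that p14ARF binds, was at 622.02, 682.94 and 858.9. MDM2 falls outside the naming rule and was chosen after its values were seen.

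Among 14 regulators of the INK4 locus, 0 were 2-fold from the control in hairpin 1, beside 0.646% of tested genes. In hairpin 2, 1 was higher and 0 lower, beside 3.64% and 0.978% of tested genes. That gene was TBX2, a repressor of the locus, at 0.74 in the control, 0.5 in hairpin 1 and 2.73 in hairpin 2. TBX2 passed the level filter through hairpin 2 alone, so its call is no support for a difference. ETS1, an activator, was at 4.78, 6.66 and 2.65, and was 2-fold lower in hairpin 2 than in hairpin 1. ID1, which opposes ETS factors, was at 293.88, 355.09 and 321.02, and the activator ETS2 at 20.19, 17.57 and 13.41. Polycomb genes, chosen after their values were seen, were on both sides of the control: EZH2, the histone methyltransferase, was at 10.64, 14.82 and 12.53 and BMI1, a repressor of the locus, at 10.76, 7.72 and 10.32. Of 9 genes of p27 and cyclin D turnover, 0 were 2-fold from the control in either library, beside 0.646% and 4.62% of tested genes. CKS1B, a cofactor in p27 degradation, was at 371.87, 351.89 and 288.41 and SKP1, a subunit of that ligase, at 151.45, 155.34 and 120.83. Of 14 genes listed as chromosome 9 neighbours of CDKN2A and CDKN2B, 7 are in the table and 5 passed the level filter. Of these, 3 (KLHL9, MTAP and ELAVL2) were 2-fold higher in hairpin 2, beside 3.64% of tested genes, and 0 in hairpin 1. MLLT3 was 0.90 above the control in hairpin 2 on the log2(value + 1) scale and was not counted. KLHL9, MTAP and ELAVL2 passed the filter through hairpin 2 alone, so the count is no support for a difference.

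**Figure D5:**
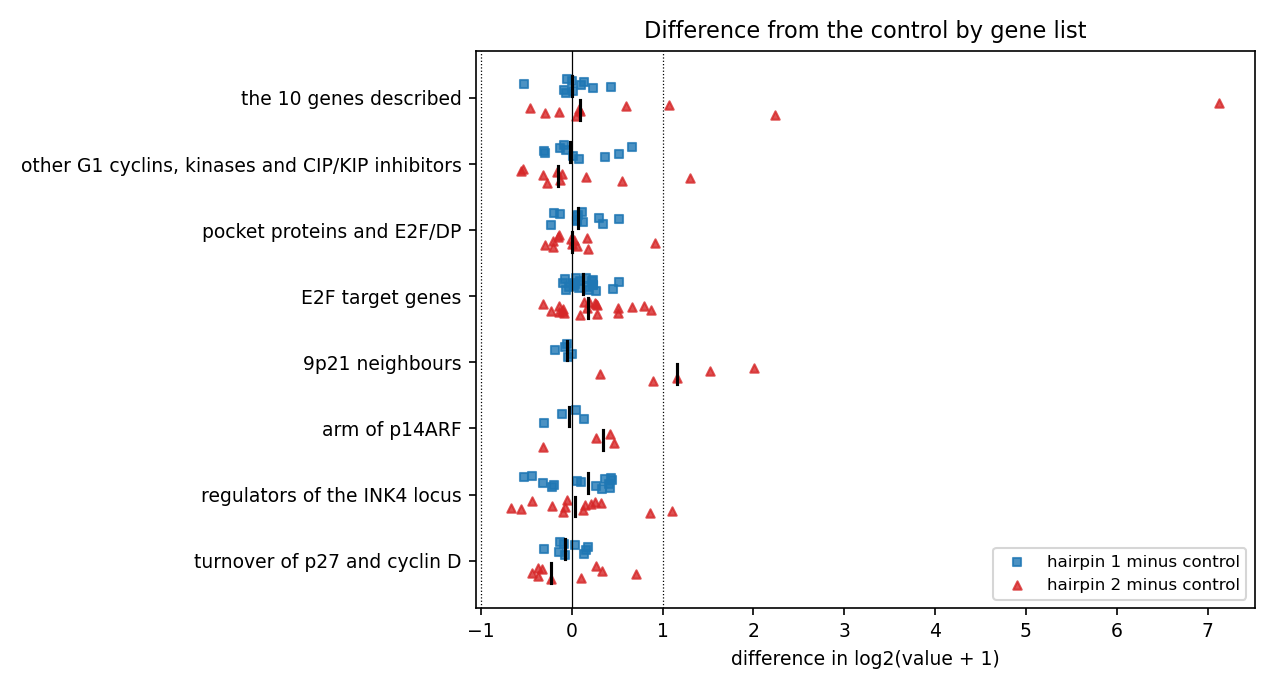
Difference from the control in log2(value + 1) (horizontal axis) for each gene that passed the level filter, by list, in hairpin 1 (squares) and hairpin 2 (triangles), with the list median as a black bar, a solid line at 0 and dotted lines at 2-fold. The 10 genes described have medians of 0.01 and 0.09, the 20 E2F targets 0.12 and 0.18, and CDKN2A is the point farthest right.

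The m6A peak list annotated 3 peaks to 2 of the 10 genes, CDKN1B and CDKN2C, all in an exon or UTR. CDKN1B had a peak in the exon class on chromosome 12 at 12870807 to 12871152, on the plus strand and 678 bases from the annotated start. CDKN2C had a peak in the 5′ UTR class on chromosome 1 at 51434398 to 51435028, 1106 bases from the start, and a peak in the exon class at 51439484 to 51439851, 6060 bases from the start. They were 345, 630 and 367 bases wide, where the median of 15940 peaks is 315. These are the authors' regions, with no score or fold, and their genome build is unsure: hg38 is named, but peaks run to 249212571 on chromosome 1 while the last RefSeq gene of GRCh38.p14 ends at 248937099.

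Of all genes listed in the expression table, 31.5% had a peak in an exon or UTR, and of those at 1 or more in the control 43.4%. Symbols were matched exactly for these shares. Genes whose peaks carry an older symbol, such as FOCAD, are missed, so the shares may be too low. Of the 10 genes described, 7 were at 1 or more in the control, and 2 of these 7 had a peak. The marked genes CDKN1B and CDKN2C were both above the control in both hairpin libraries, with differences of 0.11 and 0.08 for CDKN1B and of 0.14 and 0.60 for CDKN2C. In hairpin 1 and hairpin 2, 34.8% and 19.8% of tested genes differed by less than CDKN1B. For CDKN2C the shares were 44.1% and 86.9%. Of the 5 unmarked genes, CDKN2D and RB1 were below the control in both libraries and CDK4 was above it in both, while CDK6 and CCND3 were on different sides in hairpin 1 and hairpin 2. Whether a peak relates to the direction of a difference was not tested. A peak list with no replicate scores gives no measure of how strongly each transcript was marked, and m6A was not mapped in the knockdown cells. Among the lists by role, 3 of 10 other G1 genes, 6 of 12 pocket protein, E2F and DP genes, 8 of 20 E2F targets, 8 of 14 INK4 regulators and 5 of 9 turnover genes had a peak in an exon or UTR.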

How the data were processed

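RNA-seq covered 3 libraries and m6A immunoprecipitation 3 (1 input and 2 precipitated). TopHat2, HTSeq, build hg38 and, for the precipitation, MACS2 are named, per the submitters' processing notes, without versions or settings. The authors deposited an expression signal per gene with 2 decimals whose unit the header does not state. Columns sum to 608291 in the control, 617840 in hairpin 1 and 627152 in hairpin 2, so the values are not raw counts, depth is unknown, and no counting interval is given. Levels of different genes are compared only in ranks by hairpin 2 or control value and in list sums, which the unstated unit limits. The deposited peak positions and distances to the start are other values, used as given.

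Differences were taken on log2(value + 1), with the values as deposited; fold changes of low genes are understated on this scale. Genes at 1 or more in at least 1 library were tested for a 2-fold difference (12375 genes). No statistical test was made, since each group has 1 library. Each gene's symbol was matched exactly; 17412 were current symbols, 480 older ones, 332 unmatched, and 25 rows held dates. Named genes were the 10 members, METTL3, and in each list by role those 2-fold apart in any comparison and the 2 with the highest control value. One gene of the p14ARF list is not reported here. Members and lists were chosen with earlier results of these data known. The difference script was checked on simulated data. Promoter windows come from RefSeq (GRCh38.p14) and were matched by symbol for 9 of the 10 genes, not for CCND2. Scripts ran in Python 3.11.15 with pandas 2.3.3, numpy 2.4.6 and matplotlib 3.10.9.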

Additional observations from a re-analysis of the deposited data

Results flagged for a closer look

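Among the 10 genes and the lists by role, 6 genes lay on opposite sides of the control in the hairpin libraries and differed 2-fold or more between them, a difference that was not tested because each hairpin has 1 library. In log2(value + 1), hairpin 2 was above hairpin 1 by 7.19 for CDKN2A, 2.07 for MTAP, 1.59 for KLHL9 and 1.31 for TBX2. For CCNE1 the difference was -1.23 and for ETS1 -1.07. In CDKN2A, MTAP and KLHL9 the hairpin 1 side of this pattern rests on values of at most 0.07 in the control and hairpin 1. In TBX2 it rests on 0.74 in the control and 0.5 in hairpin 1, both under the level filter of 1.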

How the results depend on the processing

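No paired analysis was possible because each RNA-seq group has 1 library. Each of the 10 genes kept the direction of its differences under median-of-ratios scaling and equal sums. So did the 9 that were tested with quantile normalization, where CDKN2B is under the level filter. CDKN2B was listed at 0 in the control and hairpin 1, so its difference there has no direction. Pseudocounts of 0.1 and 0.5 are no check of direction, since a pseudocount cannot reverse it. The members 2-fold from the control were 3 in hairpin 2, and 3 apart between the hairpin libraries, under the pseudocounts, median-of-ratios scaling and equal sums. With quantile normalization each count was 2, as CDKN2B is not tested, and with a mean of at least 5 each count was 1, as CDKN2B and CCND2 are not tested. Of all tested genes, the share 2-fold apart with a pseudocount of 0.1 was 2.1% in hairpin 1 and 7.82% in hairpin 2 against the control, and 8.67% between the hairpin libraries. It was 1.09% in hairpin 1 with a pseudocount of 0.5. With a mean of at least 5 it was 2.33% in hairpin 2 and 2.79% between the hairpin libraries. Between the hairpin libraries 497 genes were higher and 149 lower in hairpin 2, or 381 and 194 with quantile normalization. The size of the CDKN2A difference depends on the pseudocount, since the other libraries are near 0. The 2 members with a peak were the same count with peaks of any class, with older symbols, and at 1 or 5 or more in the control. With unknown depth, values near 0 set no limit.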
